A study of Homo sapiens with 8 samples.

Results

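Untreated cells labelled with the names of a pair of myeloma lines were set against each other at baseline, before any drug was given. Compared were 2 arrays of cells labelled OPM1 and 2 arrays of MM1S cells, of 8 arrays in 4 groups in all. Whether the label OPM1 names those cells was not tested, and syndecan-1, the marker that defines myeloma cells, was near background on their arrays. The members were the arrays whose titles name the untreated control of each line, numbered 1 and 2, and the treated arrays entered none of the main values. The study exposed both lines to Zalypsis, a marine-derived compound, at 5 nM and measured RNA on HG-U133 Plus 2.0 oligonucleotide arrays. The controls carry no agent that the labels name, and neither their harvest time nor any genetic modification is given. Whether the pair of arrays of a line was made from separate cultures is not stated. Every p-value here thus measures only the spread between arrays of the same line, which may be technical. That spread was pooled over genes, so a small p-value rests mostly on the spread that genes share. Each line stands for 1 established culture, and a difference between them is a difference between those cultures.

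Myeloma is a cancer of plasma cells, the end stage of the B lineage. A B cell holds its identity with PAX5, EBF1 and BACH2, which keep B-cell receptor genes on and the plasma cell program off. When it matures, PRDM1, IRF4 and XBP1 replace that program, the surface proteins syndecan-1 (SDC1) and BCMA (TNFRSF17) appear, and the endoplasmic reticulum expands to fold secreted antibody. Earlier in the lineage, pre-B cells pair their first mu heavy chain with the surrogate light chain made from VPREB1 and IGLL1. MM1S is known for a translocation that activates MAF, and OPM1 is described as a line with the translocation that activates FGFR3 and NSD2.

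The deposited signals of the 4 arrays were alike in scale, with medians of 23.78 to 24.41 and 75th percentiles of 101.5 to 115.1. Log2 signals correlated across all probe sets other than controls at 0.9933 between the MM1S arrays, 0.9878 between the OPM1-labelled arrays and 0.8753 to 0.8843 between lines. Probe sets are not independent replicates, and these values only describe the arrays. The first OPM1-labelled array stood apart in RNA integrity: its 3′ to 5′ signal ratio was 2.258 for GAPDH and 5.798 for ACTB, while MM1S and the second OPM1-labelled array gave 1.014 to 1.05 for GAPDH and 1.952 to 2.2 for ACTB. Poly-A spike-in controls averaged 11.01 and 10.2 on the MM1S arrays and 140.2 and 336.1 on the OPM1-labelled arrays. Line and any difference in RNA preparation cannot be told apart here.

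**Figure D1:**
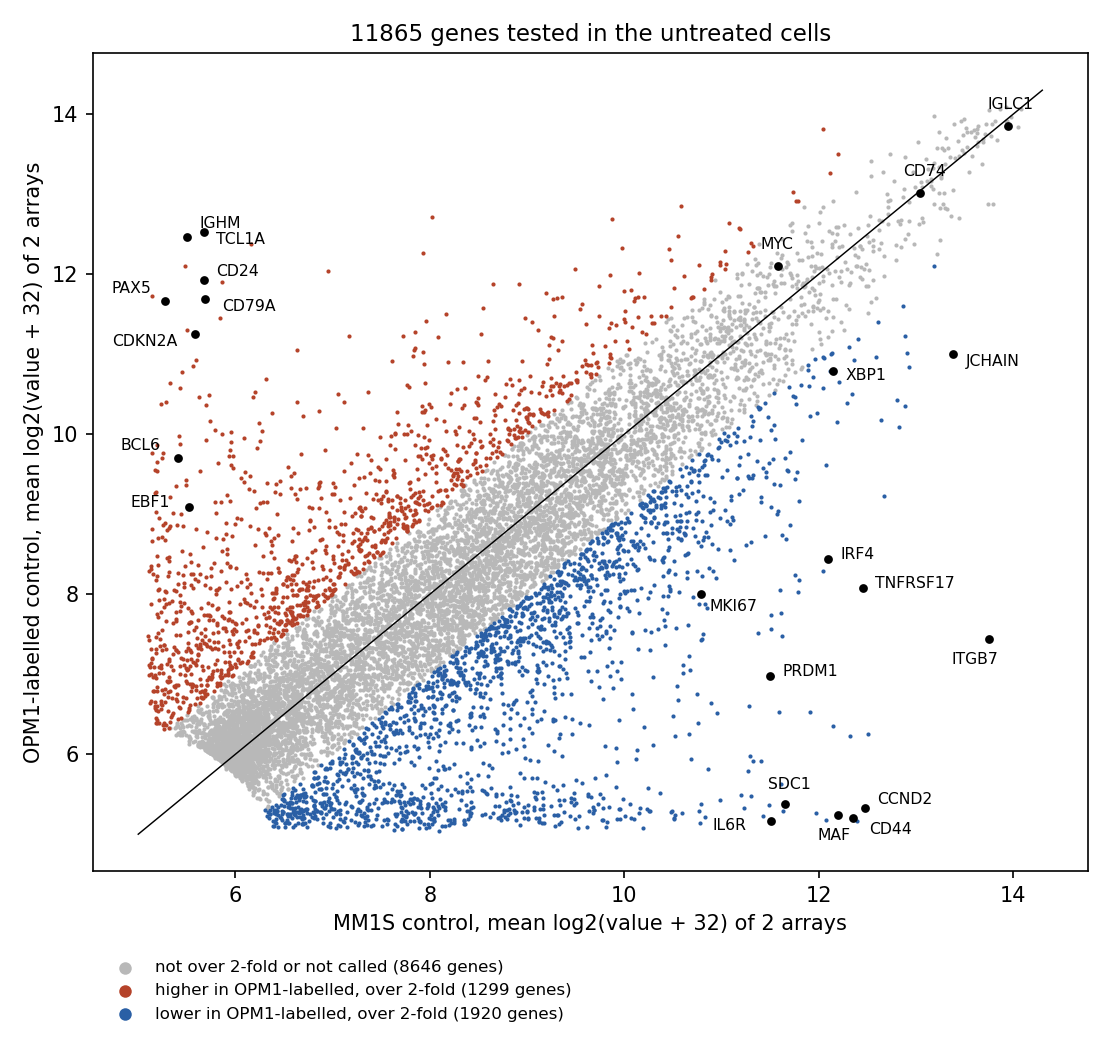
Each point is 1 of 11865 genes, placed by its mean log2(value + 32) over 2 MM1S control arrays (x axis) and 2 OPM1-labelled control arrays (y axis). Red marks 1299 genes higher and blue 1920 genes lower in OPM1-labelled cells by over 2-fold at an adjusted p under 0.05, and the line marks equal signal. IGHM, TCL1A and PAX5 sit at the upper left, and CCND2, CD44 and MAF at the lower right.

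The lines differed across most of the genes measured. Each gene was read from its brightest probe set, 11865 of 19775 genes passed a minimum mean signal of 26.961, and each was tested with limma on log2(value + 32) with Benjamini-Hochberg adjustment over all genes tested. A signal under 50 on both arrays of a line is called near background below. Differences are given throughout as OPM1-labelled minus MM1S on that log2 scale, which understates the change of dim genes. At an adjusted p under 0.05, 7542 genes were called (63.6% of those tested): 3442 were higher (29.0%) and 4100 lower (34.6%) in OPM1-labelled cells. That balance turned with scaling, to 4067 higher and 3756 lower after quantile normalization and 4077 higher and 3563 lower after scaling to the 75th percentile. By over 2-fold, 1299 genes were higher (10.9%) and 1920 lower (16.2%), and 47 and 108 genes passed 16-fold. Without the first OPM1-labelled array 6630 genes were called. The median difference over all genes was -0.047, and the standard errors ran from 0.084 to 0.281 on the log2 scale. Of the genes over 2-fold with further probe sets above the minimum, 1415 of 1685 (84.0%) had all of these on the same side.

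Many differences were close to presence against absence. On both OPM1-labelled arrays 67 genes passed a signal of 500 while staying under 50 on both MM1S arrays, and 121 genes showed the reverse. The B-lineage gene TCL1A, a coactivator of AKT, gave signals of 23.7 and 14.7 on the MM1S arrays and 6482 and 5343 on the OPM1-labelled arrays, a log2 difference of 6.86 (SE 0.19, adjusted p = 3.92e-36). RUBCNL, a regulator of autophagosome maturation, gave 3.95 and 2.59 on the MM1S arrays and 3355 and 3378 on the OPM1-labelled arrays, a log2 difference of 6.59 (SE 0.17, adjusted p = 1.95e-37). On the other side, the adhesion receptor CD44 gave 5525 and 4876 on the MM1S arrays and 6.72 and 3.25 on the OPM1-labelled arrays, a log2 difference of -7.14 (SE 0.19, adjusted p = 1.95e-37). No array of one line overlapped the other line for these genes, which also held for 9561 of 11865 genes tested (80.6%). Absence of overlap is therefore common here and marks no gene out. All 9 further CD44 probe sets above the minimum were also lower in OPM1-labelled cells.

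Beside the B-lineage genes described further on, the 15 largest higher differences held the zinc finger gene ZNF595 (log2 difference 6.62), MLLT11 (log2 difference 6.22), the branched-chain amino acid transaminase BCAT1 (log2 difference 6.04), the meiotic cohesin subunit REC8 (log2 difference 5.80), RNF144B (log2 difference 5.33), SCRN1 (log2 difference 5.33) and LIN28B (log2 difference 5.32), the fetal repressor of let-7 processing. LIN28B gave 1599.7 and 1541 in OPM1-labelled cells against 8.34 and 7.83 in MM1S. RNF144B, an E3 ubiquitin ligase, was the least even of them, with 2751 and 1338 on the OPM1-labelled arrays. The 15 largest lower differences held the glutaminyl cyclase QPCT (log2 difference -6.34), the DNA-binding factor ZBTB38 (log2 difference -6.25), adrenomedullin ADM (log2 difference -6.20), the metalloproteinase inhibitors TIMP1 (log2 difference -5.99) and TIMP2 (log2 difference -6.12), and TENT5C (log2 difference -6.10), a poly(A) polymerase recurrently mutated in myeloma. TENT5C gave 5229.6 and 4943 in MM1S against 46.4 and 39.1 in OPM1-labelled cells.

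Plasma cell genes were lower in OPM1-labelled cells, and syndecan-1, the marker that defines myeloma cells, was near background there. Of 40 tested plasma cell genes, 34 were lower (85%, beside 34.6% over all genes) and 4 higher (10%, beside 29.0%). The median difference was -1.81, beside -0.047 over all genes. Without the first OPM1-labelled array 33 were lower and 4 higher. The median was -1.14 when all probe sets of a gene were averaged. In RNA of whole cultures, fewer cells with a transcript and less of it per cell cannot be told apart. A label naming a myeloma line thus stood on arrays without the defining myeloma marker, and the cells are called OPM1-labelled for that reason.

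All 10 tested plasma cell transcription factors were called lower (100%, beside 34.6% over all genes). PRDM1, which encodes Blimp-1 and shuts off the B-cell program, gave 2703 and 3039 on the MM1S arrays and 132 and 65.4 on the OPM1-labelled arrays, a log2 difference of -4.52 (SE 0.21, adjusted p = 5.54e-27). IRF4, on which myeloma cells depend, gave 4897 and 3869 on the MM1S arrays and 285 and 350.9 on the OPM1-labelled arrays, a log2 difference of -3.65 (SE 0.20, adjusted p = 9.74e-24). XBP1, which drives the expansion of the secretory apparatus, gave 4576 and 4423 on the MM1S arrays and 1721 and 1748 on the OPM1-labelled arrays, a log2 difference of -1.36 (SE 0.16, adjusted p = 1.95e-10). The arrays of the lines did not overlap for any of these, and XBP1 stayed bright in both lines. MEF2C (log2 difference -2.72), BHLHE41 (log2 difference -3.19), CREB3L2 (log2 difference -1.18) and POU2AF1 (log2 difference -0.82), the B-cell coactivator of octamer factors, were also lower. The Ikaros factors differed least, with -0.62 for IKZF1 and -0.54 for IKZF3, and their further probe sets, 7 and 1, all lay on the opposite side. The call of IKZF1 was lost without the second OPM1-labelled array (-0.54, adjusted p = 0.085), and that of IKZF3 without the first MM1S array or either OPM1-labelled array (adjusted p = 0.0905, 0.132 and 0.121).

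Surface antigens divided. SDC1, the heparan sulfate proteoglycan used to sort plasma cells, gave 3443 and 2946 on the MM1S arrays and 6.56 and 12.9 on the OPM1-labelled arrays, a log2 difference of -6.27 (SE 0.18, adjusted p = 4.29e-36). TNFRSF17, the receptor BCMA, gave 5664 and 5499 on the MM1S arrays and 227 and 249 on the OPM1-labelled arrays, a log2 difference of -4.38 (SE 0.19, adjusted p = 1.03e-27). SLAMF7, a receptor of the SLAM family, gave 1740.3 and 1469.9 on the MM1S arrays and 92.4 and 109.6 on the OPM1-labelled arrays, a log2 difference of -3.62 (SE 0.19, adjusted p = 1.91e-24). The OPM1-labelled arrays were thus near background for SDC1 and well below MM1S for the other pair. GPRC5D (log2 difference -4.41), CD28 (log2 difference -4.96), the complement regulator CD59 (log2 difference -3.85), the BAFF and APRIL receptor TNFRSF13B (log2 difference -2.73) and LY9 (log2 difference -2.21) were lower as well. Higher in OPM1-labelled cells were CD81, CD38, CD27 and FCRL5, all of which other B cells also carry. CD38, an ectoenzyme of NAD metabolism, gave 400.1 and 578 in OPM1-labelled cells against 61.1 and 47.3 in MM1S, a log2 difference of 2.58 (SE 0.16, adjusted p = 2.23e-21). CD81, a tetraspanin of the B-cell coreceptor complex, gave 2818 and 2724 in OPM1-labelled cells against 31.1 and 20.1 in MM1S, a log2 difference of 5.61 (SE 0.18, adjusted p = 8.52e-34). CD27 differed by 1.87 (adjusted p = 1.65e-15) and FCRL5 by 2.75 (adjusted p = 1.05e-25). NCAM1 was not called, at 43.3 and 33.9 in MM1S against 38.1 and 35.2 in OPM1-labelled cells.

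Of 14 secretion partners 13 were lower (92.9%, beside 34.6% over all genes). JCHAIN, the joining chain of polymeric antibody, gave 10708 and 10574 on the MM1S arrays and 1867 and 2194 on the OPM1-labelled arrays, a log2 difference of -2.38 (SE 0.14, adjusted p = 9.03e-22). ELL2, the elongation factor that favours the secreted form of heavy chain RNA, gave 863 and 861 on the MM1S arrays and 41.9 and 32.3 on the OPM1-labelled arrays, a log2 difference of -3.70 (SE 0.16, adjusted p = 2.12e-28). TXNDC11 (log2 difference -3.75), MZB1 (log2 difference -2.32), HSP90B1 (log2 difference -2.10) and DERL3 (log2 difference -1.95) followed, and only the peroxiredoxin PRDX4 was not called among these 14, at 3510.3 and 3422 in MM1S against 3634 and 3575 in OPM1-labelled cells. CRBN, the cereblon target of lenalidomide, differed by -0.94 (adjusted p = 3.58e-06), TXNDC15 by -1.24 (adjusted p = 2.02e-07), and caveolin CAV1 by -5.20 (adjusted p = 2.76e-35).

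**Figure D2:**
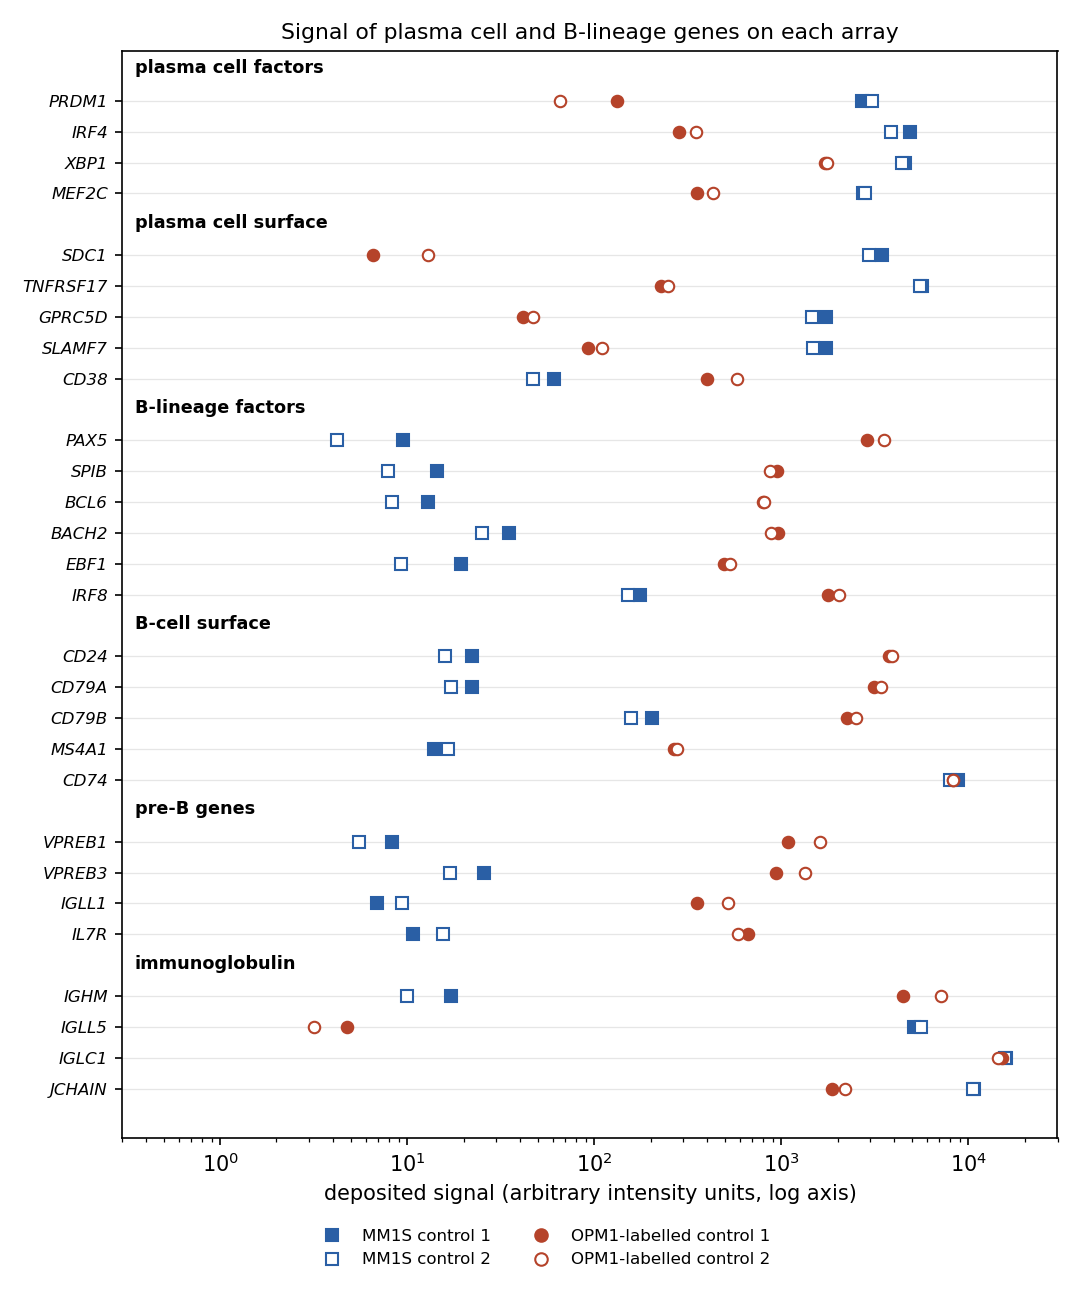
Deposited signal (x axis, log scale, arbitrary intensity units) of 28 genes on each of 4 arrays, with squares for MM1S and circles for OPM1-labelled controls and open symbols for the array numbered 2. SDC1 and IGLL5 lie near background in OPM1-labelled cells and PAX5 and VPREB1 in MM1S, while the signals of CD74 and IGLC1, read from 1 probe set each, lie close together.

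The B-lineage factors went the other way. Of 26 tested, 20 were higher in OPM1-labelled cells (76.9%, beside 29.0% over all genes) and 3 lower (11.5%, beside 34.6%). The median difference was 1.93, or 1.19 when all probe sets of a gene were averaged. Without the first OPM1-labelled array the counts were 21 and 3. PAX5, which commits cells to the B lineage, gave 9.54 and 4.23 on the MM1S arrays and 2883 and 3556 on the OPM1-labelled arrays, a log2 difference of 6.38 (SE 0.18, adjusted p = 1.92e-36). EBF1, its partner at early B-cell genes, gave 19.3 and 9.30 on the MM1S arrays and 492 and 531 on the OPM1-labelled arrays, a log2 difference of 3.56 (SE 0.14, adjusted p = 7.23e-30). BACH2, which represses PRDM1, gave 35.1 and 25.2 on the MM1S arrays and 964 and 884 on the OPM1-labelled arrays, a log2 difference of 3.95 (SE 0.16, adjusted p = 9.12e-30). All of these were near background in MM1S and bright on both OPM1-labelled arrays.

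BCL6, the repressor that organises the germinal centre, gave 796 and 807 in OPM1-labelled cells against 13.0 and 8.33 in MM1S, a log2 difference of 4.29 (SE 0.14, adjusted p = 4.26e-33). SPIB, an ETS factor of B cells, gave 952 and 869 in OPM1-labelled cells against 14.4 and 7.89 in MM1S, a log2 difference of 4.45 (SE 0.15, adjusted p = 2.80e-33). ID3, an inhibitor of E proteins, gave 2067 and 2731 in OPM1-labelled cells against 104 and 121 in MM1S, a log2 difference of 4.06 (SE 0.20, adjusted p = 8.36e-26). IRF8 (log2 difference 3.30), BCL11A (log2 difference 3.07), SOX4 (log2 difference 2.95), IKZF2 (log2 difference 2.48), POU2F2 (log2 difference 2.38), MYB (log2 difference 2.36), LEF1 (log2 difference 2.01), FOXO1 (log2 difference 1.81) and the E protein TCF3 (log2 difference 1.35) were higher too. Factors of the same list that were lower were ZNF521, an antagonist of EBF1, at 414 and 390.0 in MM1S against 6.69 and 7.12 in OPM1-labelled cells, GFI1 (log2 difference -1.35) and ID2 (log2 difference -1.06). FOXP1, RUNX3 and LMO2 were not called, with differences of -0.087, 0.057 and 0.29. LMO2 was called without the first OPM1-labelled array (0.38, adjusted p = 0.0232), and TCF3 fell on the other side (-0.27, adjusted p = 0.0717) when probe sets that can bind several transcripts were left out.

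On the B-cell surface 16 of 27 tested antigens were higher (59.3%, beside 29.0% over all genes) and 3 lower (11.1%, beside 34.6%), with a median of 0.72. CD79A, a signalling chain of the B-cell receptor, gave 22.2 and 17.2 on the MM1S arrays and 3123 and 3435 on the OPM1-labelled arrays, a log2 difference of 6.001 (SE 0.18, adjusted p = 5.37e-35). Its partner CD79B gave 205 and 157 on the MM1S arrays and 2255 and 2501 on the OPM1-labelled arrays, a log2 difference of 3.51 (SE 0.20, adjusted p = 8.11e-23). MS4A1, which encodes the antibody target CD20, gave 14.0 and 16.5 on the MM1S arrays and 268 and 278 on the OPM1-labelled arrays, a log2 difference of 2.69 (SE 0.13, adjusted p = 1.47e-25). None of these overlapped between lines, and MS4A1 was the dimmest of them in OPM1-labelled cells. CD24 gave 3787 and 3912 in OPM1-labelled cells against 22.3 and 15.9 in MM1S, a log2 difference of 6.25 (SE 0.19, adjusted p = 1.94e-35). CD180 (log2 difference 3.21), CD72 (log2 difference 2.70), CD83 (log2 difference 2.42), CD69 (log2 difference 2.29), CD80 (log2 difference 1.82) and the sialic acid receptor CD22 (log2 difference 1.01) were higher. The tetraspanin CD9 (log2 difference -2.65), CD48 (log2 difference -1.26) and the complement receptor CR2 (log2 difference -0.93) were lower. CD40 (log2 difference 0.19), CD37 (log2 difference 0.100), CD52 (log2 difference -0.049), CD70 (log2 difference 0.28) and CD86 (log2 difference -0.15) were not called. CD40 was called without the first OPM1-labelled array (0.46, adjusted p = 0.0312). FCER2 and FCRL1 were below the minimum, with highest signals of 24.9 and 27.4. In RefSeq's GRCh38.p14 promoter table the letters CCCNNGGG, a core that EBF1 is known to bind, lay within 250 bases before the start of 1 of 24 B-cell surface genes (4.17%), against 4535 of 27303 promoters (16.6%). The octamer ATGCAAAT, bound by the partners of POU2AF1, lay in 2 of 24 (8.33%), against 454 of 27303 (1.66%).

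Genes of the pre-B stage were among the largest differences. Of 11 tested members 8 were higher (72.7%, beside 29.0% over all genes) and 2 lower (18.2%, beside 34.6%), with a median of 3.52. VPREB1 gave 8.33 and 5.5 on the MM1S arrays and 1092 and 1611 on the OPM1-labelled arrays, a log2 difference of 5.13 (SE 0.16, adjusted p = 2.33e-34). VPREB3, which associates with newly made mu chains, gave 25.8 and 16.9 on the MM1S arrays and 935 and 1338 on the OPM1-labelled arrays, a log2 difference of 4.44 (SE 0.17, adjusted p = 3.99e-31). IGLL1, the lambda-like part of the surrogate light chain, gave 6.90 and 9.38 on the MM1S arrays and 352 and 519.6 on the OPM1-labelled arrays, a log2 difference of 3.52 (SE 0.14, adjusted p = 2.33e-29). The lines did not overlap on any of the 4 arrays, and MM1S was near background for each gene. The interleukin 7 receptor IL7R (log2 difference 3.87), the CD10 gene MME (log2 difference 4.09) and the CD45 gene PTPRC (log2 difference 4.56) were higher. DNTT, the template-free polymerase of recombining cells, was dim in both, at 29.4 and 20.2 on the MM1S arrays and 53.04 and 51.8 on the OPM1-labelled arrays, a log2 difference of 0.58 (SE 0.14, adjusted p = 2.55e-04). The recombinase genes RAG1 and RAG2 did not pass the minimum, with OPM1-labelled signals of 29.4 and 25.8 for RAG1 and 45.5 and 36.8 for RAG2, and CD34 stayed at 8.63 and 16.04 in MM1S and 16.5 and 17.6 in OPM1-labelled cells. Adenosine deaminase ADA (log2 difference -1.87) and CD99 (log2 difference -0.78) were lower, and the call of CD99 was lost without the first OPM1-labelled array (-0.65, adjusted p = 0.0557).

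Germinal centre genes were mixed, with 11 of 22 higher (50%, beside 29.0% over all genes), 4 lower (18.2%, beside 34.6%) and a median of 0.43. RGS13, a regulator of chemokine receptor signalling, gave 1523 and 1248 in OPM1-labelled cells against 18.4 and 16.2 in MM1S, a log2 difference of 4.84 (SE 0.16, adjusted p = 3.13e-33). SMIM14 (log2 difference 3.90), IRAG2 (log2 difference 3.23), GCSAM (log2 difference 2.81), ELL3 (log2 difference 2.77) and BCL7A (log2 difference 2.72) were higher beside TCL1A and BCL6. Lower were KLHL6 (log2 difference -2.42), the histone methyltransferase EZH2 (log2 difference -1.10), SSBP2 (log2 difference -0.71) and MYBL1 (log2 difference -0.67). SERPINA9, a marker of germinal centre cells, stayed at 20.9 and 21.9 in MM1S and 6.13 and 9.76 in OPM1-labelled cells, below the minimum.

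Of 36 receptor signalling genes 22 were higher (61.1%, beside 29.0% over all genes) and 12 lower (33.3%, beside 34.6%), with a median of 0.72. The kinase BTK gave 664 and 623 in OPM1-labelled cells against 36.4 and 35.1 in MM1S, a log2 difference of 3.32 (SE 0.15, adjusted p = 2.77e-27). SYK differed by 2.02 (adjusted p = 4.15e-14), PLCG2 by 2.13 (adjusted p = 1.28e-14), the phosphoinositide kinase subunit PIK3CD by 3.61 (adjusted p = 2.96e-27) and protein kinase PRKCB by 3.77 (adjusted p = 1.24e-27). DOK3 (log2 difference 4.43), RASGRP2 (log2 difference 2.90), LCK (log2 difference 2.84) and NFATC1 (log2 difference 2.22) were higher as well. Lower were the phosphatase PTPN6 (log2 difference -2.58), PIK3CG (log2 difference -1.88), RASGRP3 (log2 difference -1.84) and VAV1 (log2 difference -1.71), so members of one kinase or exchange factor family sat on both sides. SYK, PLCG2, NFATC1, PIK3CG, RASGRP3 and VAV1 were chosen after their values were seen.

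Immunoglobulin genes separated the lines by chain. IGHM, the mu heavy chain, gave 17.1 and 9.94 on the MM1S arrays and 4467 and 7118 on the OPM1-labelled arrays, a log2 difference of 6.97 (SE 0.20, adjusted p = 6.51e-36), and 3 of its 4 further bright probe sets were also higher. The lambda light chain probe sets IGLC1 and IGLV1-44 were bright in both lines and not called on their brightest probe sets. IGLC1 gave 15907 and 15708 on the MM1S arrays and 15185 and 14419.6 on the OPM1-labelled arrays, and IGLV1-44 gave 13279.6 and 13080.5 on the MM1S arrays and 13045 and 12671 on the OPM1-labelled arrays. These signals lay close to the highest of any probe set on an array (16920 to 17660), where a difference may be compressed. Other settings called both lower: IGLC1 stood at -2.66 (adjusted p = 8.75e-14) without probe sets that can bind several transcripts, -0.56 (adjusted p = 0.00219) when probe sets were averaged and -0.21 (adjusted p = 0.0144) after quantile normalization, and -0.13 (adjusted p = 0.0403) without the first OPM1-labelled array. IGLV1-44 stood at -1.98 (adjusted p = 4.47e-07) when probe sets were averaged and -0.18 (adjusted p = 0.0259) after quantile normalization. IGLL5, a gene of the lambda locus, gave 5120.5 and 5568 on the MM1S arrays and 4.78 and 3.16 on the OPM1-labelled arrays, a log2 difference of -7.22 (SE 0.18, adjusted p = 1.95e-37). That IGLL5 probe set can bind several transcripts, and its 2 other probe sets were near background in both lines, at 5.69 to 8.73 and at 4.16 to 10.94 on the 4 arrays. IGKC was dim on all 4 arrays, at 33.0 and 24.6 on the MM1S arrays and 59.4 and 74.3 on the OPM1-labelled arrays, a log2 difference of 0.70 (SE 0.14, adjusted p = 1.26e-05), which turned to -0.48 when all 8 arrays set the choice of probe set and the fit. The delta heavy chain gene IGHD was dim as well, at 56.1 and 43.7 on the MM1S arrays and 83.7 and 124 on the OPM1-labelled arrays, a log2 difference of 0.72 (SE 0.14, adjusted p = 1.12e-05), or 0.019 (adjusted p = 0.894) when probe sets were averaged. Lambda genes are near-identical copies, and signal on one probe set may come from another. IGHG1 and IGHA1 were below the minimum in both lines. The median of this list turned sign under 3 other settings, and no direction is given for it.

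Markers of other cell types were mostly near background. Of 28 T and NK cell markers 19 fell below the minimum, among them CD3D, CD3E, CD3G, CD4, CD8A and GNLY, and the summed signal of the list was 1526 to 1720 in MM1S and 850.7 to 1035 in OPM1-labelled cells. The 7 tested gave 2 higher (28.6%, beside 29.0% over all genes), TRBC1 (log2 difference 2.92) and LCK. The 2 lower (28.6%, beside 34.6%) were CD28 and LAT (log2 difference -0.76). Of 29 myeloid markers 17 fell below it, among them CD14, at 6.30 and 4.70 in MM1S against 5.82 and 4.89 in OPM1-labelled cells, and LYZ, at 9.78 and 6.24 in MM1S against 7.74 and 10.2 in OPM1-labelled cells. The myeloid sum was 2648 to 3568 in MM1S and 1718 to 1800.0 in OPM1-labelled cells. Of 8 tested members 4 were higher (50%, beside 29.0% over all genes), led by FCER1G, a chain of Fc receptors (log2 difference 1.98) and CEBPA (log2 difference 1.47). The 2 lower (25%, beside 34.6%) were LILRB1 (log2 difference -3.10) and CST3 (log2 difference -2.89).

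Of 19 erythroid and megakaryocyte markers 7 were below the minimum, including GATA1 and KLF1. The beta-globin gene HBB nevertheless gave 597 and 445 in MM1S against 12.2 and 10.7 in OPM1-labelled cells, a log2 difference of -3.66 (SE 0.14, adjusted p = 2.96e-30). The delta-globin gene HBD gave 1359 and 1009.9 in MM1S against 9.85 and 5.79 in OPM1-labelled cells, a log2 difference of -4.92 (SE 0.16, adjusted p = 3.04e-34). The list's sum was 1756 to 2298 in MM1S and 382.5 to 449.9 in OPM1-labelled cells. Of its 6 tested members 2 were higher (33.3%, beside 29.0% over all genes) and 3 lower (50%, beside 34.6%). The count higher fell without either MM1S array or the second OPM1-labelled array. Epithelial and stromal markers gave 15 of 26 below the minimum, with EPCAM at 7.51 and 4.26 in MM1S against 8.69 and 5.59 in OPM1-labelled cells. Of 11 tested, 3 were higher (27.3%, beside 29.0% over all genes) and 3 lower (27.3%, beside 34.6%). The sums were 1223 to 1241 in MM1S against 771.2 to 771.8 in OPM1-labelled cells. The matrix genes SPARC (log2 difference -3.71) and FN1 (log2 difference -2.40) were lower. The medians of the myeloid, erythroid and epithelial lists lay near 0 and turned sign under other settings. What part these markers have in the other differences was not tested.

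**Figure D3:**
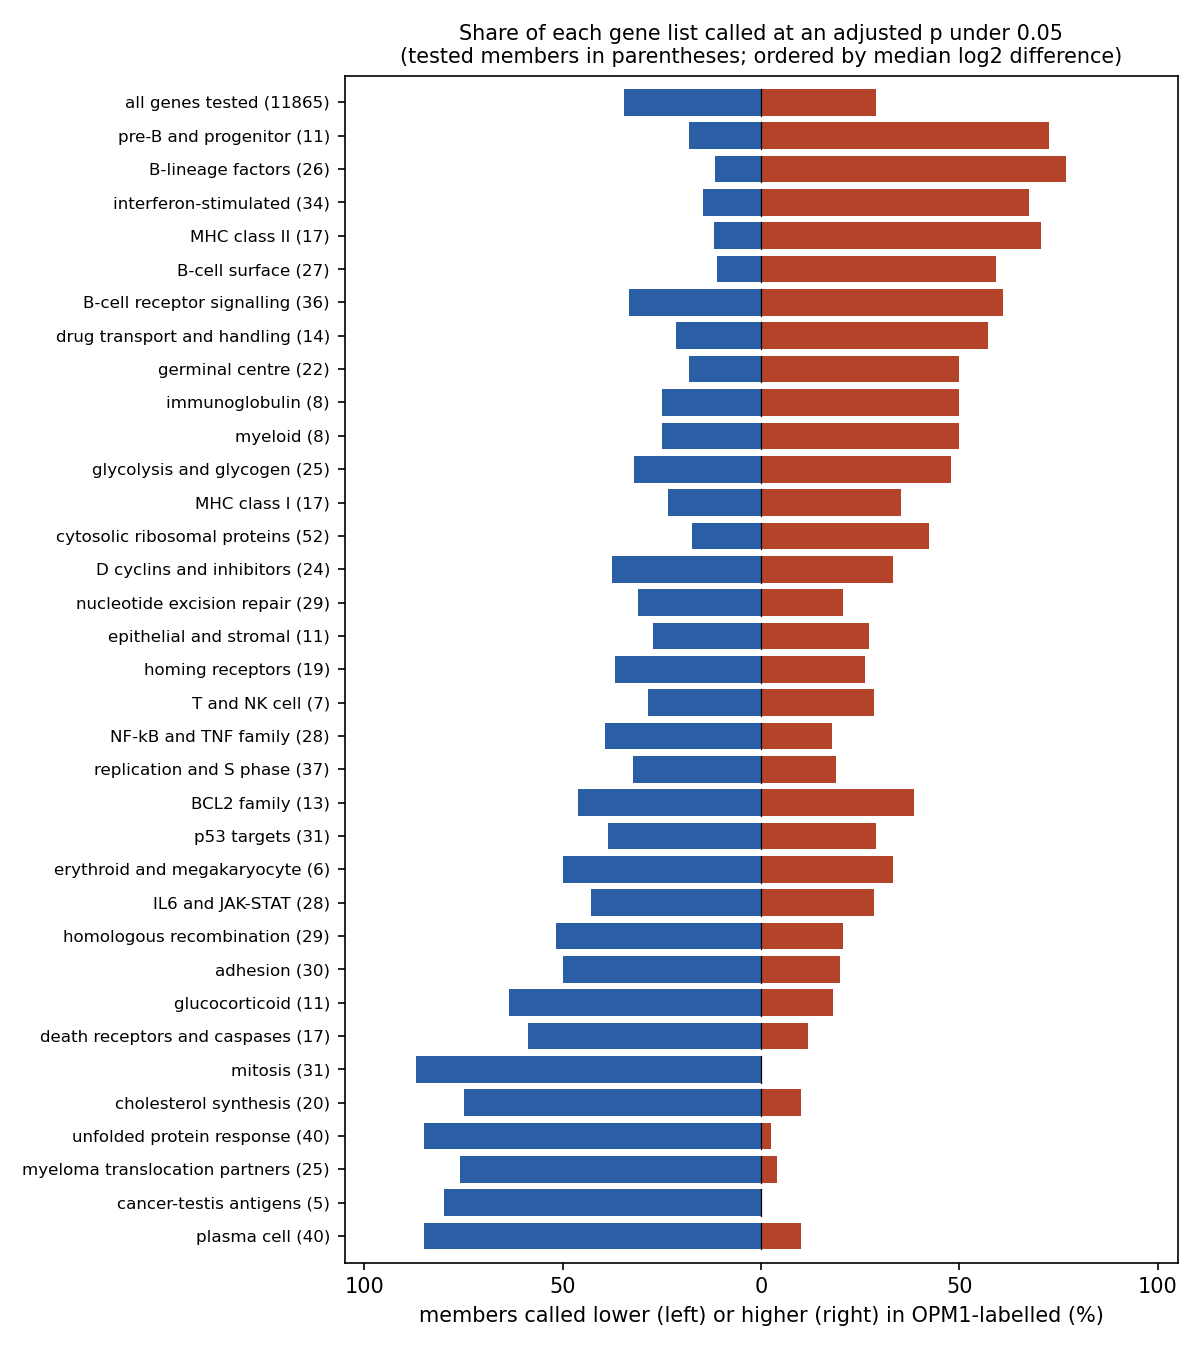
Share of the tested members of 34 gene lists called lower (blue, left) or higher (red, right) in OPM1-labelled cells at an adjusted p under 0.05, with all 11865 genes as the top bar (34.6% lower, 29.0% higher). Lists are ordered by median difference, from pre-B genes at 3.52 to plasma cell genes at -1.81.

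The genes of the recurrent myeloma translocations set MM1S apart. All 12 tested genes of the MAF group were lower in OPM1-labelled cells (100%, beside 34.6% over all genes), with a median of -2.72. MAF itself, a basic leucine zipper factor, gave 4619.7 and 4716 on the MM1S arrays and 3.60 and 7.78 on the OPM1-labelled arrays, a log2 difference of -6.96 (SE 0.18, adjusted p = 1.95e-37). Its target CCND2, a D cyclin, gave 6022 and 5313 on the MM1S arrays and 9.97 and 6.43 on the OPM1-labelled arrays, a log2 difference of -7.15 (SE 0.19, adjusted p = 1.95e-37). ITGB7, the integrin beta chain that MAF is known to raise in myeloma, gave 13971 and 13580.5 on the MM1S arrays and 109 and 181 on the OPM1-labelled arrays, a log2 difference of -6.31 (SE 0.20, adjusted p = 1.10e-34). MAF and CCND2 were near background on both OPM1-labelled arrays, and the 3 further bright probe sets of each went the same way. The chemokine receptor CCR1 gave 2409 and 2324 in MM1S against 5.87 and 10.2 in OPM1-labelled cells. The kinase NUAK1 gave 1070.0 and 849 in MM1S against 6.69 and 8.70 in OPM1-labelled cells, and ARID5A gave 1585 and 1606 in MM1S against 107 and 131 in OPM1-labelled cells. MAFF, a small MAF protein, was lower by less (log2 difference -2.01), and the Wnt inhibitor DKK1 was dim in both, at 82.5 and 79.8 in MM1S against 9.92 and 11.3 in OPM1-labelled cells.

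FGFR3, the receptor tyrosine kinase that marks the translocation described for OPM1, was near background on all 4 arrays, at 41.7 and 29.2 on the MM1S arrays and 26.9 and 20.9 on the OPM1-labelled arrays, with a difference of -0.27 (adjusted p = 0.0958). NSD2, the histone methyltransferase activated by the same event, gave 1635 and 1645 on the MM1S arrays and 638 and 791 on the OPM1-labelled arrays, a log2 difference of -1.17 (SE 0.20, adjusted p = 6.87e-07), and 3 of its 5 further bright probe sets were lower without overlap, at -1.68, -1.52 and -0.35, while the other two overlapped between the lines, at -0.17 and -0.014. Neither gene was called higher in the OPM1-labelled cells than in MM1S. Of the 13 tested genes of this group 7 were lower (53.8%, beside 34.6% over all genes) and 1 higher (7.69%, beside 29.0%). The lower genes were led by the sulfatase SULF2 (log2 difference -4.75), desmoglein DSG2 (log2 difference -3.99) and N-cadherin CDH2 (log2 difference -3.51). NSD1 alone was higher (log2 difference 0.46). That call was lost without the first MM1S array (0.34, adjusted p = 0.143) or the first OPM1-labelled array (0.37, adjusted p = 0.08).

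Of 24 D cyclins, kinases and inhibitors 8 were higher (33.3%, beside 29.0% over all genes) and 9 lower (37.5%, beside 34.6%), shares close to those over all genes, or 5 higher without the second MM1S array. CCND3 gave 2638 and 2922 in OPM1-labelled cells against 546 and 407 in MM1S, a log2 difference of 2.48 (SE 0.20, adjusted p = 1.31e-16), and CCND1 was dim in both, at 54.4 and 43.0 in MM1S against 4.90 and 8.44 in OPM1-labelled cells. CDKN2A, an inhibitor of the D cyclin kinases, gave 21.5 and 10.9 on the MM1S arrays and 2194 and 2658 on the OPM1-labelled arrays, a log2 difference of 5.67 (SE 0.18, adjusted p = 1.56e-34). CDKN1B, an inhibitor of later cyclin kinases, gave 1993 and 1751 on the MM1S arrays and 71.4 and 64.7 on the OPM1-labelled arrays, a log2 difference of -4.25 (SE 0.18, adjusted p = 5.33e-28). The former was near background in MM1S and the latter dim in OPM1-labelled cells. RB1, on chromosome 13, gave 1561 and 1206 in OPM1-labelled cells against 342 and 316 in MM1S, a log2 difference of 1.96 (SE 0.20, adjusted p = 8.07e-13), while its relatives RBL1 (log2 difference -1.45) and RBL2 (log2 difference -1.88) were lower. The MYC relative MYCL was higher (log2 difference 1.83), as was cyclin CCNE2 (log2 difference 0.95). CDKN1A was not called, at 1066 and 747 in MM1S against 1087 and 1139 in OPM1-labelled cells, but was without the first MM1S array (0.56, adjusted p = 0.0311). CDKN2C was not analysed here. MYC gave 2981 and 3063 on the MM1S arrays and 3479 and 5475 on the OPM1-labelled arrays, a log2 difference of 0.53 (SE 0.16, adjusted p = 0.0045), and leaving out the first MM1S array (0.51, adjusted p = 0.116), the second MM1S array (0.55, adjusted p = 0.0932) or the second OPM1-labelled array (0.20, adjusted p = 0.387) ended that call. Without the first OPM1-labelled array MYC differed by 0.85 (adjusted p = 9.27e-06).

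Adhesion genes were lower more often than higher, 15 of 30 (50%, beside 34.6% over all genes) against 6 (20%, beside 29.0%). Homing genes were close to even and to the shares over all genes, with 7 of 19 lower (36.8%) against 5 higher (26.3%). CADM1, an immunoglobulin-like adhesion molecule, gave 4295 and 3714 on the MM1S arrays and 6.75 and 5.88 on the OPM1-labelled arrays, a log2 difference of -6.72 (SE 0.18, adjusted p = 4.87e-37). SELPLG, the ligand of P-selectin, gave 2642 and 2371 in MM1S against 12.1 and 12.9 in OPM1-labelled cells, a log2 difference of -5.83 (SE 0.17, adjusted p = 1.86e-35). Integrin chains split: ITGB5 (log2 difference -5.11), ITGA8 (log2 difference -3.76) and ITGAL (log2 difference -3.35) were lower and ITGB2 was higher, at 570.5 and 606 in OPM1-labelled cells against 6.24 and 2.48 in MM1S. CD84, a homotypic receptor of lymphocytes, was higher (log2 difference 2.92). CXCR4, which holds plasma cells in the marrow, gave 3442 and 3176 in OPM1-labelled cells against 651 and 558 in MM1S, a log2 difference of 2.40 (SE 0.19, adjusted p = 1.16e-16). CCR7, which guides lymphocytes to lymph nodes, gave 141 and 114 in OPM1-labelled cells against 3.30 and 2.75 in MM1S, a log2 difference of 2.18 (SE 0.14, adjusted p = 7.35e-21). CCR10 (log2 difference -4.39), CCR2 (log2 difference -3.62), P2RY10 (log2 difference -3.02), CXCR3 (log2 difference -2.81) and the chemokine CCL5 (log2 difference -1.85) were lower, and GPR183 (log2 difference 1.59) and S1PR4 (log2 difference 1.57) higher.

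Interleukin 6, a growth factor of myeloma cells, signals through IL6R and the shared chain IL6ST. IL6R gave 3117 and 2678 on the MM1S arrays and 3.59 and 3.86 on the OPM1-labelled arrays, a log2 difference of -6.35 (SE 0.17, adjusted p = 4.89e-37). IL6ST gave 1936 and 1965 on the MM1S arrays and 63.6 and 54.9 on the OPM1-labelled arrays, a log2 difference of -4.44 (SE 0.18, adjusted p = 4.46e-29). Both receptor chains were thus bright in MM1S, and in OPM1-labelled cells IL6R was near background and IL6ST dim. The shared cytokine chain IL2RG (log2 difference -1.87), the kinases PIM2 (log2 difference -3.36) and PIM1 (log2 difference -1.59), SOCS2 (log2 difference -2.20) and IL10RA (log2 difference -2.15) were lower, and STAT5B (log2 difference 1.26) higher. Over the list 12 of 28 were lower (42.9%, beside 34.6% over all genes) and 8 higher (28.6%, beside 29.0%).

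In the NF-kB and TNF family 11 of 28 were lower (39.3%, beside 34.6% over all genes) and 5 higher (17.9%, beside 29.0%). The list's median of -0.094 turned sign under 3 other settings. The subunit REL gave 674 and 483 in OPM1-labelled cells against 25.8 and 31.2 in MM1S, a log2 difference of 3.32 (SE 0.15, adjusted p = 4.78e-27). Of the inhibitors, the deubiquitinase TNFAIP3 gave 1959 and 1622 in MM1S against 191 and 214 in OPM1-labelled cells, a log2 difference of -2.95 (SE 0.20, adjusted p = 8.96e-20), and CYLD differed by -2.37 (adjusted p = 4.08e-18). MAP3K14, the kinase NIK of the noncanonical pathway, differed by -1.26 (adjusted p = 2.94e-12), and its negative regulator TRAF3 by 1.03 (adjusted p = 4.98e-06), although the 1 further bright TRAF3 probe set stood at -0.028.

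Among the BCL2 family 5 of 13 were higher (38.5%, beside 29.0% over all genes) and 6 lower (46.2%, beside 34.6%). BIK, a BH3-only killer of the endoplasmic reticulum, gave 22.99 and 19.3 on the MM1S arrays and 1441 and 1373 on the OPM1-labelled arrays, a log2 difference of 4.76 (SE 0.16, adjusted p = 7.00e-33). BCL2L1, the survival protein BCL-xL, gave 1359.9 and 1057 on the MM1S arrays and 117 and 134 on the OPM1-labelled arrays, a log2 difference of -2.97 (SE 0.19, adjusted p = 1.07e-20). BCL2 gave 707 and 614 on the MM1S arrays and 354 and 302 on the OPM1-labelled arrays, a log2 difference of -0.94 (SE 0.19, adjusted p = 2.12e-05), while its 1 further bright probe set stood at 0.072. On its brightest probe set MCL1 overlapped between the lines, at 2339 and 1951 in MM1S against 2136 and 2550.3 in OPM1-labelled cells, and was not called. Its next brightest gave 1184 and 1119 in MM1S against 825 and 920 in OPM1-labelled cells, a difference of -0.39. The remaining MCL1 probe sets ran from -0.34 to 0.32. PMAIP1 (log2 difference 2.20), HRK (log2 difference 1.77) and BCL2A1 (log2 difference 1.803) were higher, and the effector BAK1 (log2 difference -1.45), BMF (log2 difference -1.35), BAD (log2 difference -1.31) and BAX (log2 difference -0.75) lower.

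Death receptor and caspase genes were lower in 10 of 17 (58.8%, beside 34.6% over all genes) and higher in 2 (11.8%, beside 29.0%), with a median of -0.72. CASP8, the initiator caspase of death receptors, gave 792 and 833 in MM1S against 113 and 87.2 in OPM1-labelled cells, a log2 difference of -2.68 (SE 0.17, adjusted p = 2.69e-20). CASP4, the inflammatory caspase, gave 296 and 251 in MM1S against 5.44 and 3.52 in OPM1-labelled cells, a log2 difference of -3.06 (SE 0.13, adjusted p = 5.23e-28). CASP10 (log2 difference -2.38), CFLAR (log2 difference -1.68), FAS (log2 difference -1.60) and survivin BIRC5 (log2 difference -0.87) were lower. Higher were DIABLO (log2 difference 1.31) and APAF1 (log2 difference 0.57), the latter chosen after its values were seen.

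Targets of p53 showed no common side, with 9 of 31 higher and 12 lower, close to the shares over all genes. The median of -0.24 turned sign when more dim genes were left out. PERP, a membrane protein of desmosomes, gave 2666 and 2417 in MM1S against 27.8 and 29.2 in OPM1-labelled cells, a log2 difference of -5.41 (SE 0.18, adjusted p = 2.57e-33). TRIM22 (log2 difference 3.51), PMAIP1 and ZMAT3 (log2 difference 2.18) were higher, and GADD45B (log2 difference -2.14), SESN2 (log2 difference -1.95) and XPC (log2 difference -1.71) lower. The ubiquitin ligase gene MDM2 was not called, at 1770.4 and 1759.6 in MM1S against 1642 and 1254 in OPM1-labelled cells. A further MDM2 probe set of like signal gave 1779 and 1663 in MM1S against 1319 and 1051 in OPM1-labelled cells, a difference of -0.53. The remaining MDM2 probe sets ran from -0.59 to 0.36, the highest of them near background. Glucocorticoid receptor genes were lower in 7 of 11 (63.6%, beside 34.6% over all genes) and higher in 2 (18.2%, beside 29.0%), with a median of -0.72. The receptor NR3C1 gave 1820.1 and 1584 in MM1S against 707 and 665 in OPM1-labelled cells, a log2 difference of -1.27 (SE 0.20, adjusted p = 1.07e-07). Its targets SGK1 (log2 difference -4.08), TXNIP (log2 difference -1.16) and TSC22D3 (log2 difference -2.001) were lower and FKBP5 (log2 difference 1.17) was higher, and TSC22D3 turned to 0.23 (adjusted p = 0.173) without probe sets that can bind several transcripts.

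DNA repair genes bear on Zalypsis, which binds DNA. Nucleotide excision repair gave 6 of 29 higher (20.7%, beside 29.0% over all genes) and 9 lower (31%, beside 34.6%), both below the shares over all genes. Of this list 14 were not called, and the count higher fell without the second MM1S array. ERCC5, the endonuclease XPG, gave 220.4 and 183 on the MM1S arrays and 94.0 and 109 on the OPM1-labelled arrays, a log2 difference of -0.81 (SE 0.14, adjusted p = 2.41e-06). The single-strand binding subunit RPA3 (log2 difference -1.47) and XPC and DDB2 (log2 difference -1.15), which recognise damage, were lower, and the TFIIH subunits GTF2H4 (log2 difference 1.55) and ERCC2 (log2 difference 1.10) higher. Homologous recombination was lower in 15 of 29 (51.7%, beside 34.6% over all genes) and higher in 6 (20.7%, beside 29.0%). Its largest differences were those of FANCI (log2 difference -1.48), FANCG (log2 difference -1.24) and BARD1 (log2 difference -0.997). Without the first array of either line 9 were lower, and without the second array of either line 3 were higher. Of 14 tested genes of drug transport and handling 8 were higher (57.1%, beside 29.0% over all genes) and 3 lower (21.4%, beside 34.6%). The efflux pump ABCC4 gave 868 and 800.0 in OPM1-labelled cells against 127 and 113 in MM1S, a log2 difference of 2.51 (SE 0.18, adjusted p = 8.61e-19), and ABCC1 differed by 0.94 (adjusted p = 1.81e-05). Glutathione transferases split, with GSTM1 (log2 difference 1.35) and GSTM2 (log2 difference 1.15) higher and GSTP1 (log2 difference -0.85, or -0.55 without the first OPM1-labelled array) lower, and the vault protein MVP was lower (log2 difference -1.74). ABCB1, the P-glycoprotein pump, was below the minimum on all 4 arrays, at 15.9 and 13.3 in MM1S against 19.1 and 22.3 in OPM1-labelled cells.

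MHC class II genes present peptides to helper T cells. Of 17 tested, 12 were higher (70.6%, beside 29.0% over all genes) and 2 lower (11.8%, beside 34.6%). The median was 0.75, or 0.48 when all probe sets of a gene were averaged and 0.37 without those that can bind several transcripts. HLA-DQA1 gave 144 and 168 in OPM1-labelled cells against 6.12 and 5.79 in MM1S, a log2 difference of 2.30 (SE 0.13, adjusted p = 2.73e-22). HLA-DQB1 gave 215 and 279.6 in OPM1-labelled cells against 24.3 and 15.1 in MM1S, a log2 difference of 2.43 (SE 0.14, adjusted p = 9.81e-23). HLA-DRB1 gave 1238 and 1604 in OPM1-labelled cells against 669 and 502 in MM1S, a log2 difference of 1.24 (SE 0.20, adjusted p = 4.29e-07). The DQ chains were near background in MM1S and the DR chain was bright in both lines. CIITA, the master coactivator of the class, was dim and differed little, at 48.9 and 51.7 on the MM1S arrays and 78.1 and 90.3 on the OPM1-labelled arrays, a log2 difference of 0.50 (SE 0.13, adjusted p = 9.68e-04), and was not called with all 8 arrays (0.25, adjusted p = 0.122). HLA-DRB4 (log2 difference 2.82), HLA-DOA (log2 difference 1.70), RFXAP (log2 difference 1.64), HLA-DPB1 (log2 difference 1.13), HLA-DOB (log2 difference 0.86), HLA-DMA (log2 difference 0.75), CTSS (log2 difference 0.70) and HLA-DPA1 (log2 difference 0.60) were higher. The call of CTSS was lost without the first OPM1-labelled array (0.50, adjusted p = 0.0537) and that of HLA-DPA1 without the second MM1S array (0.43, adjusted p = 0.0789), and leaving out probe sets that can bind several transcripts turned HLA-DOB to -0.18 (adjusted p = 0.26) and CTSS to -0.32 (adjusted p = 0.0861) and ended the call of HLA-DPB1 (0.25, adjusted p = 0.126). Averaging ended that of CTSS as well (0.29, adjusted p = 0.0777).

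The invariant chain CD74 coincided between the lines, at 8834 and 7964 in MM1S against 8241 and 8305 in OPM1-labelled cells, and RFX5 was not called (log2 difference 0.16). HLA-DRA was uneven within OPM1-labelled cells, at 1146 and 2774, against 2286 and 2047 in MM1S, with a difference of -0.27 (adjusted p = 0.272). Without the second OPM1-labelled array HLA-DRA was called lower, at -0.90 (adjusted p = 0.0016). RFXANK (log2 difference -0.42) and HLA-DMB (log2 difference -0.44) were called lower, calls that were lost without the first MM1S array (adjusted p = 0.308 and 0.215), the second MM1S array (0.0604 and 0.166) and the first OPM1-labelled array, where they fell to -0.17 (adjusted p = 0.623) and -0.069 (adjusted p = 0.843). Without the second OPM1-labelled array they stood at -0.67 and -0.81. Different HLA alleles may bind a probe set unequally, and that was not tested.

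Class II promoters carry an inverted CCAAT box as part of their conserved upstream element, and stretches of 60 bases that hold it are shown for 4 members with a higher signal, chosen after their matches were seen. CCAAT, or ATTGG on the other strand, lay within 250 bases before the start in 11 of 14 class II promoters of RefSeq's GRCh38.p14 table (78.6%), against 9021 of 27303 promoters in the table (33.0%). Capitals mark CCAAT or ATTGG.
HLA-DQA1 (chr6:32637310-32637369, plus strand): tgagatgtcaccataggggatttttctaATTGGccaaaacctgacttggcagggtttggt
HLA-DQB1 (chr6:32666714-32666773, minus strand): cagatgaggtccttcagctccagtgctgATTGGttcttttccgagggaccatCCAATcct
HLA-DOA (chr6:33009627-33009686, minus strand): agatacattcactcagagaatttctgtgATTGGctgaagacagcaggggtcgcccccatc
HLA-DRB1 (chr6:32589863-32589922, minus strand): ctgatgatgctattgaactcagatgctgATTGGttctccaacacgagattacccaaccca
The box stood in 7 of 9 promoters of members called higher and 1 of 2 called lower, and a match describes letters only.

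Of 17 tested MHC class I genes 6 were higher (35.3%, beside 29.0% over all genes) and 4 lower (23.5%, beside 34.6%). The count lower fell without the first OPM1-labelled array. Leaving out probe sets that can bind several transcripts gave 2 higher and 4 lower of 12. NLRC5, the class I coactivator, gave 341 and 318 in OPM1-labelled cells against 28.4 and 28.2 in MM1S, a log2 difference of 2.58 (SE 0.14, adjusted p = 3.15e-24). The peptide transporter gene TAP2 (log2 difference 1.55) and the immunoproteasome gene PSMB8 (log2 difference 0.92) were higher. HLA-B differed by 0.76 (adjusted p = 1.85e-06) and HLA-C by 0.99 (adjusted p = 1.70e-08). The calls of TAP2 (0.27, adjusted p = 0.0583) and HLA-B (0.53, adjusted p = 0.0509) were lost when probe sets were averaged. Of the chaperones, TAPBP (log2 difference -1.87) and CALR (log2 difference -1.93) were lower.

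Interferon-stimulated genes were higher in 23 of 34 (67.6%, beside 29.0% over all genes) and lower in 5 (14.7%, beside 34.6%). Their median was 1.09, or 0.71 when the dimmest 60% of genes were left out. ISG15, a ubiquitin-like modifier, gave 81.3 and 124 on the MM1S arrays and 1231 and 1632 on the OPM1-labelled arrays, a log2 difference of 3.45 (SE 0.19, adjusted p = 4.80e-23). IFITM3, which restricts viral entry, gave 226 and 175 on the MM1S arrays and 1959 and 3054 on the OPM1-labelled arrays, a log2 difference of 3.42 (SE 0.21, adjusted p = 1.62e-21). MX2, a dynamin-like GTPase, gave 27.8 and 28.1 on the MM1S arrays and 422 and 377 on the OPM1-labelled arrays, a log2 difference of 2.84 (SE 0.14, adjusted p = 1.08e-25). The 3 genes were bright in OPM1-labelled cells and did not overlap between lines. IFITM2 (log2 difference 3.22), IFITM1 (log2 difference 2.73), IFIT3 (log2 difference 2.68), DTX3L (log2 difference 2.61), PARP9 (log2 difference 2.36) and IFIT1 (log2 difference 2.12) were higher. Lower were SAMD9L (log2 difference -1.81), BST2 (log2 difference -1.76), IFI35 (log2 difference -1.72), IFIH1 (log2 difference -1.27) and ISG20 (log2 difference -0.69), which were chosen after their values were seen, and the call of ISG20 was lost without the first OPM1-labelled array (-0.62, adjusted p = 0.0676). TRIM22 belongs to this list and to the p53 targets.

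**Figure D4:**
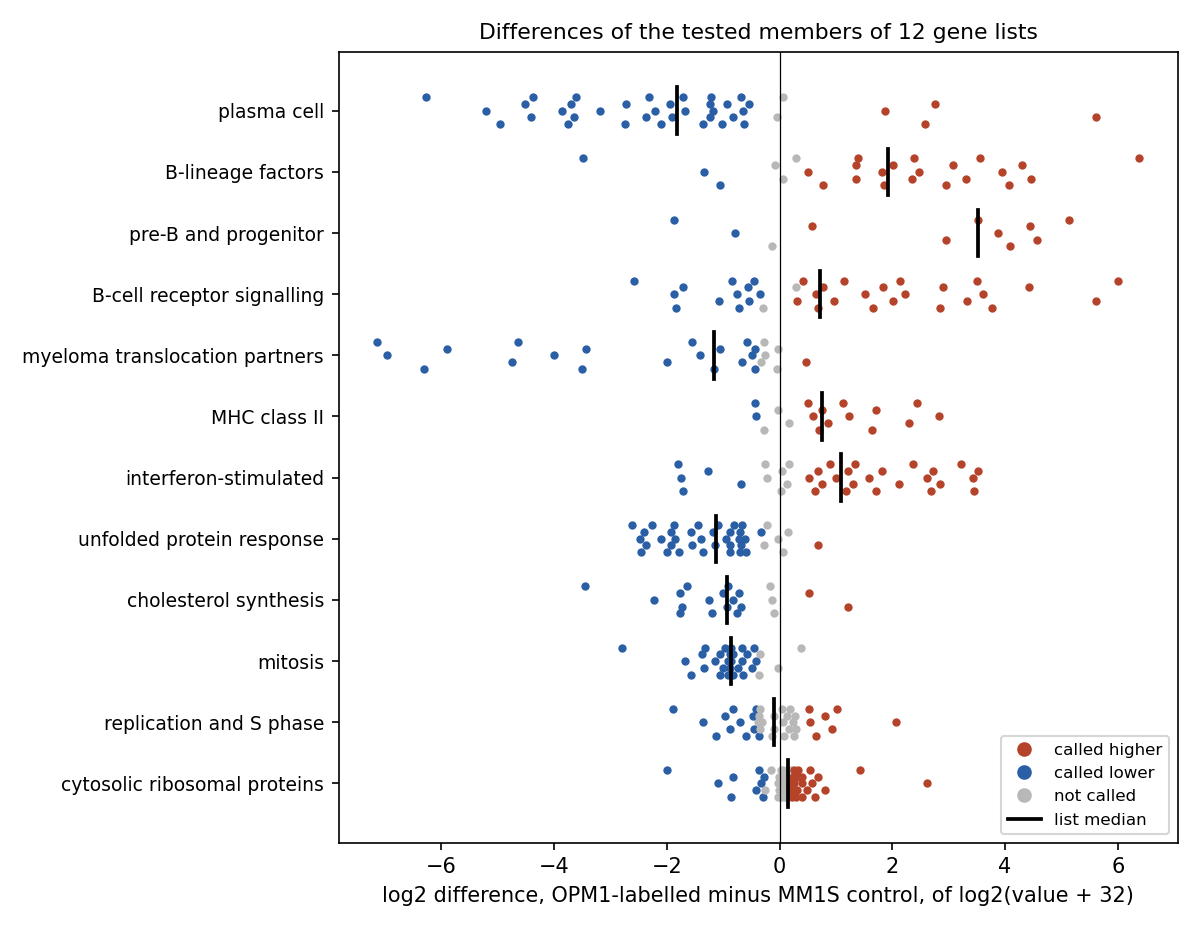
Log2 difference (x axis, OPM1-labelled minus MM1S) of each tested member of 12 gene lists, red where called higher, blue where called lower and grey where not called, with a black bar at the list median. Plasma cell genes spread from -6.27 to 5.61, while the unfolded protein response and mitosis lists lie almost wholly left of 0.

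The unfolded protein response matches folding capacity in the endoplasmic reticulum to secretory load. Of 40 tested genes 34 were lower (85%, beside 34.6% over all genes) and 1 higher (2.5%, beside 29.0%), with a median of -1.12. Without the first OPM1-labelled array 30 were lower and 1 higher. The disulfide isomerase PDIA4 gave 4007 and 3086 on the MM1S arrays and 509.7 and 577 on the OPM1-labelled arrays, a log2 difference of -2.63 (SE 0.19, adjusted p = 5.81e-18). HERPUD1, a scaffold of the degradation machinery, gave 6842 and 5902 on the MM1S arrays and 1126 and 1119 on the OPM1-labelled arrays, a log2 difference of -2.47 (SE 0.17, adjusted p = 1.97e-19). SEL1L, its ligase partner, gave 1684 and 1472 on the MM1S arrays and 272 and 251 on the OPM1-labelled arrays, a log2 difference of -2.45 (SE 0.20, adjusted p = 1.53e-16). MM1S was brighter than both OPM1-labelled arrays for each. MANF (log2 difference -2.41), DDIT3 (log2 difference -2.37), DERL1 (log2 difference -2.26), DNAJB9 (log2 difference -1.99) and SSR3 (log2 difference -1.93) followed, and ERO1B, chosen after its value was seen, was the 1 gene higher (log2 difference 0.68).

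Stretches of 60 bases from 5 promoters of this list are shown because they hold the letters of the stress response element, CCAAT and CCACG separated by 9 bases, which ATF6 and XBP1 are known to recognise with NF-Y. On either strand it lay within 250 bases before the start in 7 of 37 promoters of the list (18.9%), against 22 of 27303 in the RefSeq GRCh38.p14 table (0.0806%) and 14 of 9650 promoters of tested genes (0.145%). Capitals mark both motifs, which read CGTGG and ATTGG where the element lies on the other strand.
XBP1 (chr22:28800583-28800642, minus strand): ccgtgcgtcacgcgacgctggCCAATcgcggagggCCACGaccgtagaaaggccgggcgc
HSP90B1 (chr12:103930300-103930359, plus strand): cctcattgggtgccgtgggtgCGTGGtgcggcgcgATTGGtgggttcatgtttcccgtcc
CALR (chr19:12938363-12938422, plus strand): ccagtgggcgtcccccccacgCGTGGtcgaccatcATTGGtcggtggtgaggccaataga
CRELD2 (chr22:49918533-49918592, plus strand): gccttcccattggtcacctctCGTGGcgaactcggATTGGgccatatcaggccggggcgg
HSPA5 (chr9:125241371-125241430, minus strand): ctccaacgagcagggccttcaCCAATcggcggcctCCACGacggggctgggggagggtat
The 4 first named were lower, with differences of -1.36 for XBP1, -2.10 for HSP90B1, -1.93 for CALR and -0.81 for CRELD2. CALR stood at -0.0032 (adjusted p = 0.989) without probe sets that can bind several transcripts. HSPA5, the chaperone BiP, was not called, at 4566 and 4395 in MM1S against 3423 and 3980.4 in OPM1-labelled cells, a difference of -0.28 (adjusted p = 0.0982). Some other settings called HSPA5 lower, at -0.66 with averaged probe sets (adjusted p = 0.0038) and -0.26 after quantile normalization (adjusted p = 0.0185). The fit with all 8 arrays (adjusted p = 0.037) and the crossed replicate block described below (adjusted p = 0.0466) also called it, at -0.28. Without the second OPM1-labelled array the difference was -0.38. HSPA5 and CRELD2 were chosen for their matches after their values were seen. The element was present in 4 of 30 promoters of members called lower and in that of ERO1B, and most of the lower members do not hold it in this window.

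Mitotic genes were lower in 27 of 31 (87.1%, beside 34.6% over all genes), with 0 higher (beside 29.0%) and 4 not called. The median was -0.87, or -0.74 without the first OPM1-labelled array. MKI67, the proliferation antigen, gave 1917 and 1567 on the MM1S arrays and 192 and 259.6 on the OPM1-labelled arrays, a log2 difference of -2.79 (SE 0.20, adjusted p = 2.09e-18). KIF23 (log2 difference -1.68), CDC25B (log2 difference -1.57), NDC80 (log2 difference -1.38), KIF11 (log2 difference -1.35), CENPE (log2 difference -1.15), BUB1 (log2 difference -1.33), AURKA (log2 difference -1.06) and CCNB1 (log2 difference -1.05) were lower. AURKA stood at -0.13 (adjusted p = 0.585) under scaling to the 75th percentile. That setting chose the brightest probe set of each gene anew, and the median over all genes moved only from -0.047 to 0.062. Replication genes were mixed, with 7 of 37 higher (18.9%, beside 29.0% over all genes) and 12 lower (32.4%, beside 34.6%). Without the first MM1S array 7 were lower, without the first OPM1-labelled array 6 were lower, and without the second OPM1-labelled array 4 were higher. RRM2, a subunit of ribonucleotide reductase, gave 7818 and 7475 in MM1S against 2135 and 1928 in OPM1-labelled cells, a log2 difference of -1.90 (SE 0.15, adjusted p = 7.49e-17). RFC3, a subunit of the clamp loader, was higher, at 3132 and 3129 in OPM1-labelled cells against 811 and 650.1 in MM1S, a log2 difference of 2.06 (SE 0.19, adjusted p = 2.73e-14). TK1 (log2 difference -1.36) and TYMS (log2 difference -0.89) were lower and UHRF1 (log2 difference 1.02) higher.

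Cholesterol synthesis genes were lower in 15 of 20 (75%, beside 34.6% over all genes) and higher in 2 (10%, beside 29.0%), with a median of -0.93. INSIG1, the sterol sensor that holds back SREBP processing, gave 6303 and 6670.2 on the MM1S arrays and 604 and 529 on the OPM1-labelled arrays, a log2 difference of -3.45 (SE 0.18, adjusted p = 2.36e-24). MSMO1 (log2 difference -2.24), LSS (log2 difference -1.77), HMGCS1 (log2 difference -1.77) and EBP (log2 difference -1.74) were lower and SQLE (log2 difference 1.22) was higher. Without the second MM1S array 1 gene of the list was higher. Glycolysis was mixed, 12 of 25 higher (48%, beside 29.0% over all genes) and 8 lower (32%, beside 34.6%). The phosphofructokinase PFKP gave 20.8 and 10.3 on the MM1S arrays and 1783 and 1842 on the OPM1-labelled arrays, a log2 difference of 5.29 (SE 0.17, adjusted p = 3.26e-34). The glycogen branching enzyme GBE1 (log2 difference 2.43) was higher and the neuronal enolase ENO2 (log2 difference -2.90) and PDK1 (log2 difference -1.63) lower. Isoforms were exchanged: HK2 (log2 difference 1.76) was higher and HK1 (log2 difference -1.85) lower, and SLC2A1 (log2 difference 1.67) was higher and SLC2A3 (log2 difference -1.32) lower.

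Cytosolic ribosomal protein genes had 22 of 52 higher (42.3%, beside 29.0% over all genes), 9 lower (17.3%, beside 34.6%) and a median of 0.15. Scaling to the 75th percentile gave 33 higher and 5 lower, and leaving out probe sets that can bind several transcripts 6 higher and 6 lower of 28. Without the first MM1S array 8 were higher and 4 lower, and without the second MM1S array 7 were higher and 4 lower. RPS27L, a ribosomal protein paralog, was the lowest at 2806 and 2753 in MM1S against 607 and 753 in OPM1-labelled cells, a log2 difference of -1.99 (SE 0.19, adjusted p = 1.43e-13). RPL27A was the highest at 2.62, and its OPM1-labelled arrays disagreed, at 2276 and 636. RPL29 (log2 difference -1.09), RPS24 (log2 difference -0.87) and RPS25 (log2 difference -0.83) were each lowest on the first OPM1-labelled array, the one with the high 3′ to 5′ ratios. Without it the differences were smaller and still called, at -0.73 for RPL29, -0.57 for RPS24, -0.48 for RPS25 and 1.72 for RPL27A. Pseudogenes of ribosomal proteins are many, and signal on these probe sets may be shared with them. Of 33 cancer-testis antigens 5 were tested and 4 were lower (80%, beside 34.6% over all genes). MAGEA1 stood at 1869.9 and 1718 in MM1S against 2.67 and 7.82 in OPM1-labelled cells, a difference of -5.62 (adjusted p = 4.38e-36). MAGEA12 (log2 difference -2.39) and PRAME (log2 difference -1.19) were among the others.

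By chromosome, genes on 13 and 14 were called higher most often and genes on 3 lower most often. On chromosome 13, 123 of 218 tested genes were higher (56.4% beside 29.0% over all genes) and 51 lower, with a median difference of 0.56. On chromosome 14, 172 of 372 were higher (46.2%), with a median of 0.27. On chromosome 3, 350 of 670 were lower (52.2% beside 34.6% over all genes), with a median of -0.42, and on chromosomes 21 and X the shares lower were 45.3% and 44.2%. These counts describe expression, and the number of copies of each chromosome was not measured.

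**Figure D5:**
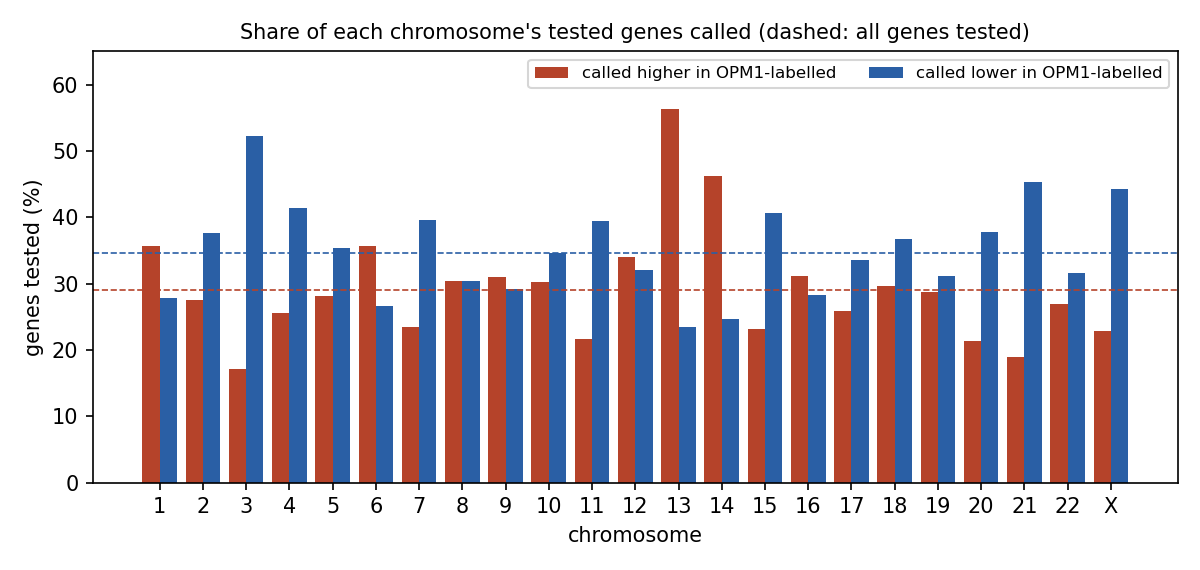
Percentage of the tested genes of each chromosome (x axis) called higher (red) or lower (blue) in OPM1-labelled cells, with dashed lines at 29.0% and 34.6% for all 11865 genes. Chromosomes 13 and 14 stand above the red line at 56.4% and 46.2%, and chromosome 3 above the blue line at 52.2%.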

How the data were processed

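RNA of 8 samples was measured on HG-U133 Plus 2.0 arrays, 1 array a sample, and the 4 untreated arrays are compared here. The deposited values are signal intensity per probe set on a linear scale, made by the authors with the DNA-Chip Analyzer software (dChip), per the series' design text. Not given in the sources used here were its version, its probe model and the normalization between arrays. The number of arrays limits the precision, and detection calls were not used here.

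Of 54675 probe sets 62 were controls, 41091 had 1 gene symbol in the platform annotation, 1801 had several and 11721 had none. Symbols were updated through RefSeq where they matched (41037 probe sets). Each gene was represented by the probe set with the highest mean over the 4 arrays, and the 40% of genes with the lowest mean were left out before testing. Probe sets whose ID ends in _x_at or _s_at can bind several transcripts and were left out in 1 alternative. Values were tested as log2(value + 32) with limma 3.58.1 in R 4.3.3, with a mean-variance trend and the 4 arrays only. The variance of each gene was drawn toward that trend, with 52.2 prior degrees of freedom beside 2 of the gene's own. The script was tested on simulated data with known differences.

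The members and gene lists were chosen with earlier results of these data known, so a list's count is no independent evidence. Genes were named by rule: genes of interest, the 15 largest differences each way, up to 10 largest called members of each list, any member of the plasma cell, B-lineage, B-cell surface, pre-B, germinal centre, translocation and MHC class II lists, and markers near background. SYK, PLCG2, PIK3CG, VAV1, NFATC1, RASGRP3, IGLC1, IGLV1-44, APAF1, ERO1B, HSPA5, CRELD2 and the 5 lower interferon-stimulated genes were named after their values were seen.

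Arrays of both lines share the numbers 1 and 2, and nothing in the labels says that a number marks a shared day or culture. Promoters came from RefSeq's table (GRCh38.p14) and were searched over 250 bases before the start on both strands.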

Additional observations from a re-analysis of the deposited data

Results flagged for a closer look

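Poly-A spike-in control probe sets, which the comparison of genes did not use, averaged 140.2 and 336.1 on the OPM1-labelled arrays, above the 11.01 and 10.2 of the MM1S arrays. They report RNA added during labelling and no gene of the cells.

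Signal also differed in probe sets that the comparison left out for want of a single gene symbol. Of 3889 tested probe sets with no symbol, 350 were higher and 312 lower in OPM1-labelled cells by over 2-fold at an adjusted p under 0.05 in limma. Of 1065 tested probe sets with several symbols, 84 were higher and 135 lower by the same measure.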

How the results depend on the processing

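With 2 arrays a line, and no statement that they come from separate cultures, the calls rest on the spread of 2 pairs, pooled over genes. Where 1 array was left out, the lone array of its line was assumed to vary like the pair of the other line. Dim genes have understated differences, and a signal near background gives no order of levels. In 15 planned settings and 1 chosen after seeing the data, 289 of 320 named genes kept their side of the threshold, and also their direction where called. A setting in which a gene was not tested was skipped for that gene. Many of these genes were named for their large differences in these data, so the count is no independent evidence of stability. For genes not called, a change of direction was not counted. Settings that kept all 4 arrays and tested 11865 genes called 7107 to 7823 of them.

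The replicate block, which treats the shared numbers as paired samples, gave 7268 called genes. A crossed replicate block, added after seeing the data because same-numbered arrays deviated at r = -0.1422, gave 7821. Leaving out 1 array gave 6466 to 6687 called genes, 2603 to 3180 higher and 3298 to 3863 lower, 1199 to 1412 higher and 1755 to 2127 lower by over 2-fold, and 13 to 18 lists with a median above 0. Median differences then ran from -1.951 to -1.642 for plasma cell genes, 1.781 to 2.092 for B-lineage factors, 0.7019 to 0.8457 for MHC class II, 1.019 to 1.133 for interferon-stimulated genes, -1.188 to -1.017 for the unfolded protein response and -0.9443 to -0.7393 for mitosis.

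Leaving out the dimmest 60% of genes gave 2280 genes called higher, since fewer were tested, and averaging probe sets gave 832 genes higher by over 2-fold. The interferon median was 0.9418 with all 8 arrays, 1.328 and 0.7311 with pseudocounts of 16 and 64, 0.8909 without a filter, 0.7134 without the dimmest 60%, 0.864 with averaged probe sets and 0.8209 without probe sets that can bind several transcripts. For B-lineage factors it was 1.815 with a pseudocount of 64, 1.846 without a filter, 2.186 without the dimmest 60%, 2.055 after quantile normalization, 2.058 after scaling to the 75th percentile, 1.19 with averaged probe sets and 1.846 without ambiguous ones. Plasma cell genes moved to -1.139 with averaged and -1.359 without ambiguous probe sets, MHC class II to 0.9171 after quantile normalization, 0.4816 averaged and 0.3727 without ambiguous ones, and the unfolded protein response to -0.9894 after 75th percentile scaling and -0.8685 averaged. Over all genes the median stood at 0.042 after quantile normalization and 0.062 after 75th percentile scaling, beside -0.047.

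A change of sign was counted only where the main median was larger in size than the spread between arrays of a line. Smaller medians that changed sign, such as that of homing receptors from 0.024 to -0.12 with all 8 arrays, were left out. Medians that changed sign by that rule were -0.065, -0.095 and -0.56 for immunoglobulin genes with 8 arrays, without the dimmest 60% and averaged, and -0.0052, -1.655 and -0.0051 for myeloid markers under the same settings. They were -0.049, -3.713 and -0.036 for epithelial and stromal markers with 8 arrays, without the dimmest 60% and without the second MM1S array, and 0.096 and 0.018 for erythroid markers without a filter and without ambiguous probe sets. For p53 targets the median was 0.047 without the dimmest 60%, and for the NF-kB family it was 0.057, 0.029 and 0.089 after quantile normalization, after 75th percentile scaling and without ambiguous probe sets. Of named genes called with the main settings, IGKC changed to -0.48 with 8 arrays, and IKZF1 and IKZF3 to 0.53 and 0.033 with averaged probe sets. CTSS, HLA-DOB, TCF3 and TSC22D3 changed to -0.32, -0.18, -0.27 and 0.23 without ambiguous probe sets. Of 1088 list counts recomputed over the 16 settings, 11 were over 1.5 times larger and 78 over 1.5 times smaller. Of 544 list medians 137 moved by more than the spread between arrays, not counting the 15 given above as changed in sign. Apart from probe set choices and fewer genes tested, the cause was not tested.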
